A study of Mus musculus with 12 samples.

Results

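The 6 genes described here are the mouse CXC chemokine genes Cxcl1, Cxcl2, Cxcl3, Cxcl5, Ppbp and Pf4, chosen by name as the ligands of the neutrophil receptor CXCR2 and the chemokines stored in platelets. They are 6 of 54119 genes with summed counts. All 6 were among the 19150 genes that passed the filter on low counts, but Cxcl3 and Cxcl5 passed through their LPS 4 h libraries alone. Cerebral vessels were prepared from wild type C57BL6 mice of 2 to 3 months that had received an intraperitoneal injection of PBS or of 10 mg/kg LPS, a bacterial endotoxin. Mice given LPS were killed after 15 min, 30 min or 4 h, and the PBS mice served as the only control, with no separate control at each time. Each group had 3 RNA-seq libraries, each a pool of a male and a female. The mice were perfused with cold PBS before the meninges were removed, and the vessels were spun out of homogenised forebrain, so each library holds the mRNA of all cells that stay with the vessels.

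CXC chemokines are small secreted proteins that guide leukocytes along gradients. CXCL1, CXCL2, CXCL3 and CXCL5 bind CXCR2 on neutrophils, and in many tissues their genes are transcribed within minutes of a toll-like receptor or cytokine signal. PPBP is the platelet granule protein that is cut to a CXCR2 ligand after release, whereas PF4, also of platelet granules, binds heparin and related sugars strongly and is not a classical CXCR2 ligand. At the vessel wall, chemokines are held by heparan sulfate and carried across endothelium by the atypical receptor ACKR1, which binds them without signalling.

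All 6 genes lie on the plus strand of chromosome 5 (GRCm38), within 146.6 kb. In order these are Cxcl5 (chr5:90759360-90761624), Ppbp (chr5:90768518-90770063), Pf4 (chr5:90772435-90773383), Cxcl3 (chr5:90786103-90789600), Cxcl1 (chr5:90891241-90893115) and Cxcl2 (chr5:90903871-90905938). RefSeq promoter windows on GRCm38.p6, from 250 bases before to 50 bases after the RefSeq start of each gene (some bases from the GENCODE start above), were at hand for 5 of the 6, and not for Cxcl5. The stretch from 100 to 11 bases before the start is given here because it holds the matches to the first pattern searched, and was chosen after those were seen. Capitals mark each match, on either strand, to GGNNTTTCC, a pattern of the kind bound by NF-κB.
Cxcl1: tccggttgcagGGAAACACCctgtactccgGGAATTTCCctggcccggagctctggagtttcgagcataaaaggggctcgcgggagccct
Cxcl2: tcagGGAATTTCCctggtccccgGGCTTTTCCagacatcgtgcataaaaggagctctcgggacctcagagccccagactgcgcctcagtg
Cxcl3: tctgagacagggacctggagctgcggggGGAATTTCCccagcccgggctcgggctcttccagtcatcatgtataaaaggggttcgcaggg
Ppbp: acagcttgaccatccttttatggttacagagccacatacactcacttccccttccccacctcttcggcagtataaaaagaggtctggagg
Pf4: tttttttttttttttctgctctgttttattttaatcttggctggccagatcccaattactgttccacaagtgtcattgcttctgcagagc
These stretches are chr5:90891145-90891234 for Cxcl1, chr5:90903799-90903888 for Cxcl2, chr5:90786001-90786090 for Cxcl3, chr5:90768418-90768507 for Ppbp and chr5:90772335-90772424 for Pf4. The same GGAATTTCC stood in Cxcl1, Cxcl2 and Cxcl3, beginning 70, 96 and 72 bases before the start. Cxcl1 had another match on the opposite strand, GGTGTTTCC, at 89 bases, and Cxcl2 had GGCTTTTCC at 77 bases. No match was found in the whole windows of Ppbp and Pf4. Of 32851 windows of 27025 genes, 5.82% held the pattern. TGANTCA, where N is any base, takes in the AP-1 site, which has C or G at N, but is looser. It was in 7.81% of windows and, among these genes, in that of Ppbp, 204 bases before the start. The match there was TGAATCA, read as TGATTCA on the other strand, and so lacks the C or G of an AP-1 site. TATAAA was in 13.6% of windows, here in those of Ppbp (30 and 8 bases before the start) and Cxcl3 (30 bases). These are matches of letters and were not tested as binding sites.

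The libraries held 18309177 to 25882028 fragments each. Summed over fixed marker lists, endothelial genes reached 12097 to 12424 CPM (counts scaled to one fixed library total, with the TMM factor applied) in PBS and mural genes 5177 to 5291, against 339 to 351 for neurons and 426 to 442 for oligodendrocytes. Vessel genes thus led among these lists, which hold 10, 8, 6 and 6 genes in that order. A list sum does not measure the share of a cell type in the mRNA, and the erythroid sum, given further below, lay between these. LPS 4 h libraries had TMM factors near 0.717, against 1.15 to 1.17 in PBS and LPS 15 min. With library totals alone in place of these factors, the median change of all genes at 4 h moved from -0.01 to -0.71 on the log2 scale, and that at 30 min to -0.175. Modest changes at 4 h thus depend on the scaling, and some of over 2-fold, such as that of Ackr3 below, do so too. Values with library totals alone are given beside many of them. In bulk libraries, fewer cells of a type and less RNA per cell cannot be told apart. Nothing in the labels says more of how the pools were made, so p-values measure the spread between these libraries. That spread was small: Cxcl1, for one, was at 1119.98 to 1124.34 CPM at 30 min. At 15 min against PBS the fitted SE was near the counting error for Cxcl1 (0.139 and 0.133). For Cxcl2 it was below that error (0.254 and 0.343). How much of the variation between mice these libraries hold was not tested, so the very small p-values need not extend to other mice.

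Cxcl1 encodes a main early neutrophil attractant of mice. It was at 1.73, 3.69 and 2.36 TPM (a share of all transcripts, corrected for length) in the PBS libraries and at 153, 150 and 142 TPM at 15 min. It reached 1911, 1892 and 1877 TPM at 30 min, and 4086, 3935 and 4006 TPM at 4 h. The 4 groups did not overlap, and libraries of one LPS group lay close together while the PBS libraries, with 120 fragments in all, were spread about 2-fold. On the CPM scale the log2 fold change from PBS was 5.92 at 15 min (SE 0.139), a 60.3-fold rise, with an edgeR adjusted p of 5.23e-23 against a null of at most a 1.5-fold change. By 30 min it stood at 9.59, with an SE of 0.138 and an edgeR adjusted p of 4.01e-29. The 4 h value of 11.22 (SE 0.138) was a 2387-fold rise, with an edgeR adjusted p of 6.12e-31. By mean TPM, Cxcl1 ranked 13804th of all genes in PBS, 834th at 15 min, 35th at 30 min and 25th at 4 h.

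Cxcl2, the next gene along the chromosome, encodes a close relative made by myeloid and other cells. It was at 0.417, 0.560 and 0.957 TPM in PBS, from 18 fragments, and at 19.4, 17.5 and 22.6 TPM at 15 min. It was at 355, 323 and 305 TPM at 30 min and at 1399, 1366 and 1378 TPM at 4 h. As with Cxcl1, every library of a later time lay above every library of an earlier one. In CPM its level at 15 min was 53.0-fold that of PBS, a log2 fold change of 5.73 (SE 0.254) with an edgeR adjusted p of 6.08e-19. The 30 min level was 916-fold higher (9.84, SE 0.252, edgeR adjusted p 2.85e-29). At 4 h the rise was 6108-fold, or 12.58 with an SE of 0.252, and edgeR gave an adjusted p of 5.60e-33. Counting error in the 18 PBS fragments alone gives an SE of 0.340 at 4 h, larger than the fitted one. At 30 min Cxcl2 and Cxcl1 had the largest and second largest log2 fold changes of the 19150 genes in this fit, but their order rests on those 18 fragments and turned with a transcript length offset (9.53 against 9.76) and by limma. With 10 added to the authors' normalized values limma gave Cxcl2 changes of 3.76, 8.04 and 10.72 at the 3 times.

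**Figure D1:**
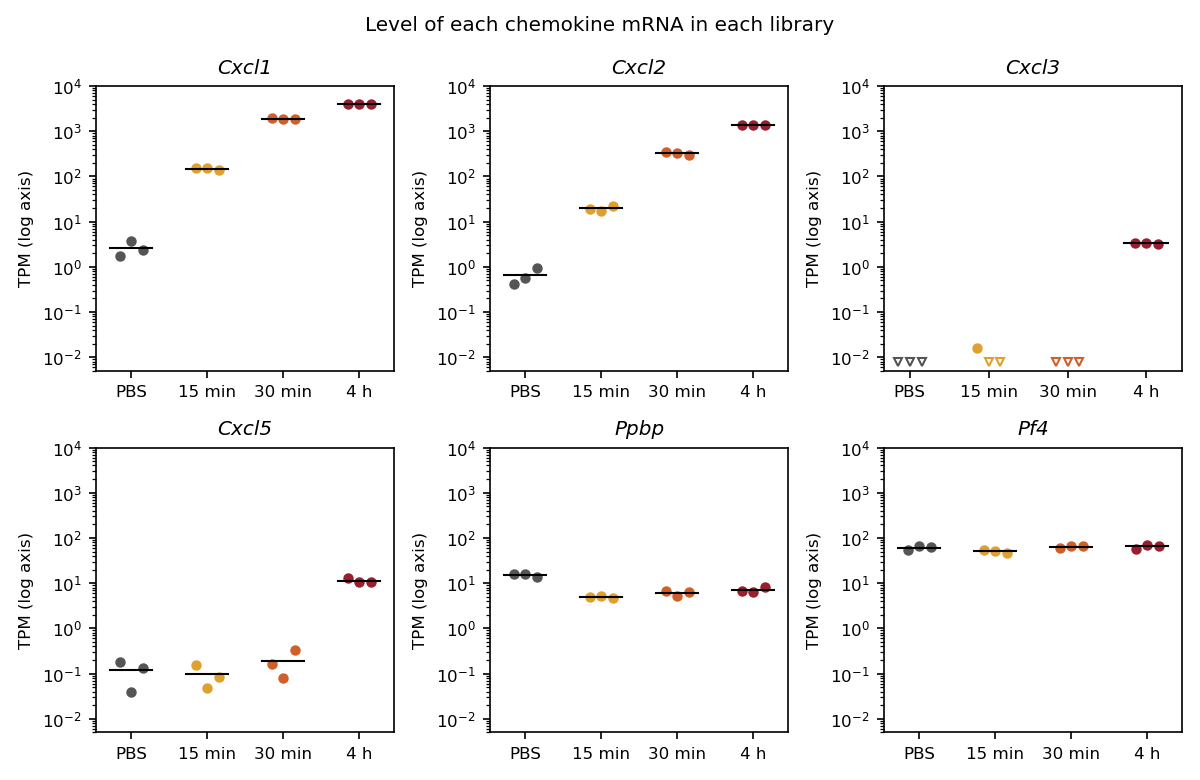
Level of each of the 6 genes in every library, in TPM on a log axis, by group; each point is a library, lines are group means and open triangles at the foot mark libraries at 0 (no mean is drawn where a library is at 0). Cxcl1 and Cxcl2 rose at each time, from means of 2.59 and 0.645 TPM in PBS to 4009 and 1381 TPM at 4 h, Cxcl3 and Cxcl5 stood above PBS at 4 h, and Ppbp and Pf4 stayed between 4.76 and 71.6 TPM throughout.

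Cxcl5, which encodes a CXCR2 ligand known from epithelium and platelets, and Cxcl3 were at the edge of detection in the first 3 groups. Cxcl5 was at 0.183, 0.0401 and 0.130 TPM in PBS, and its groups overlapped up to 30 min, where it had 14 fragments against 9 in PBS. At 4 h it was at 12.8, 10.5 and 10.5 TPM, above all other libraries, a log2 fold change in CPM of 7.32 (SE 0.497, edgeR adjusted p 6.74e-15). Cxcl5 passed the filter on low counts through its LPS 4 h libraries alone, so this p-value is that of a gene kept for being high there. Its changes at 15 min (-0.30, SE 0.719) and 30 min (0.87, SE 0.617) had edgeR adjusted p of 1. Leaving out single libraries moved them over -0.81 to 0.27 and 0.24 to 1.44, the lowest 30 min value being without LPS 30 min replicate 3. The intervals were wide at this depth: 95% of -1.71 to 1.11 and -0.34 to 2.08 on the log2 scale, so changes of that size were not detectable.

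Cxcl3 had no fragment in any PBS or LPS 30 min library and 1 fragment in LPS 15 min replicate 1. At 4 h it had 41, 47 and 43 fragments, or 3.437, 3.398 and 3.156 TPM. Set against a floor of 3 fragments over the PBS group, its level in CPM at 4 h was at least 84.5-fold higher than in PBS (edgeR adjusted p 6.92e-08). Cxcl3 too passed the filter on low counts through its LPS 4 h libraries alone, so this p-value has the same limit as that of Cxcl5. No fold is given at 15 or 30 min, where both groups were at or under that floor. Per length, at 4 h, Cxcl3 was the lowest of the 4 CXCR2 ligand genes that rose, below Cxcl5, Cxcl2 and Cxcl1 in that order, and none of these 4 overlapped with its neighbour in the order.

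Ppbp fell early. It was at 15.9, 15.8 and 13.9 TPM in PBS and at 4.90, 5.22 and 4.76 TPM at 15 min, a log2 fold change in CPM of -1.59 (SE 0.151, edgeR adjusted p 4.83e-06). All LPS 15 min libraries lay below all PBS libraries. At 30 min it was at 6.60, 5.26 and 6.35 TPM, again below PBS, and the change was -1.03 (SE 0.146, edgeR adjusted p 0.0153). This later call was lost without PBS replicate 1 (adjusted p 0.0586), without PBS replicate 2 (0.0558) and without LPS 30 min replicate 2 (0.102), and with DESeq2 (0.152) and limma (0.160 with 1 added and 0.276 with 10 added). At 4 h it was at 6.66, 6.49 and 8.25 TPM, below every PBS library on that scale, but at 7.02 ± 0.959 CPM against 8.14 ± 0.571 in PBS (SD, n = 3), where the groups overlapped. Its change at 4 h was -0.21 (SE 0.145, edgeR adjusted p 1) with TMM factors and -0.92 (adjusted p 0.00811) with library totals alone.

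Pf4 was the most abundant of the 6 in PBS, at 53.4, 66.0 and 63.9 TPM. It was at 53.8, 51.2 and 47.5 TPM at 15 min and 61.1, 66.0 and 64.8 TPM at 30 min, and neither change was called (-0.28, SE 0.100, and 0.22, SE 0.0983; edgeR adjusted p 1 for both). At 4 h it was at 57.2, 71.6 and 65.7 TPM, overlapping PBS, but at 24.7 ± 2.63 CPM against 13.03 ± 1.38 (SD, n = 3), with no overlap. That change was called with TMM factors (0.92, SE 0.0982, edgeR adjusted p 0.000944) and was 0.22 with adjusted p 1 with library totals alone. Its rise at 4 h is therefore relative to the median gene and was not seen as a share of all mRNA. The ratio of Pf4 to Ppbp in TPM, which no scaling touches, went from 3.36 to 4.59 across the PBS libraries to 9.82 to 10.98 at 15 min, and was 9.27 to 12.6 at 30 min and 7.97 to 11.03 at 4 h. The 15 min step did not overlap with PBS (exact permutation test, two-sided, p = 0.1, the smallest that 3 against 3 allows, or 0.13 adjusted over 13 shares and ratios), while the later groups overlapped with each other.

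**Figure D2:**
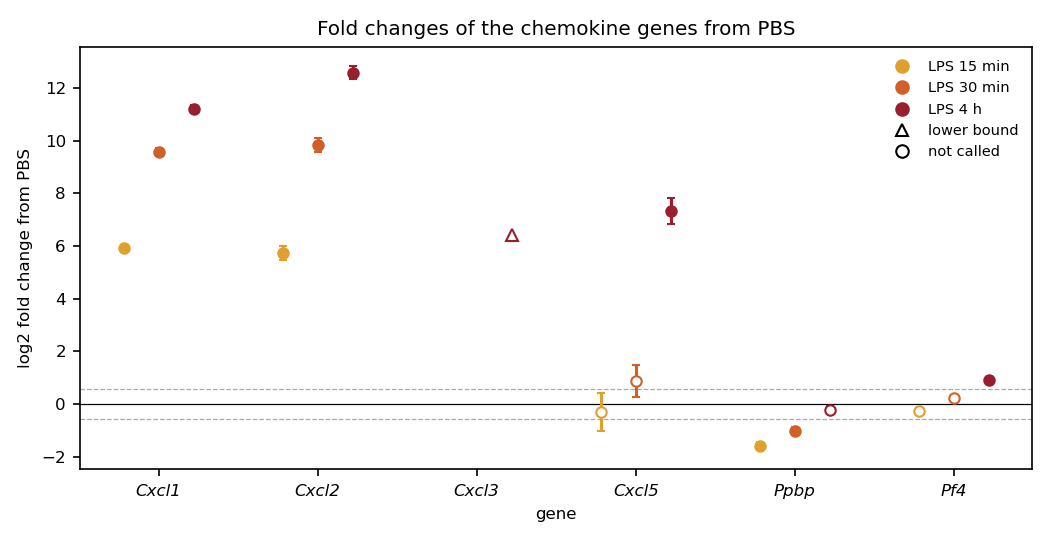
Log2 fold change of each gene from PBS at each time, from TMM-scaled counts, with bars of 1 SE; filled points were called, open points were not, the open triangle is a lower bound and the dashed lines mark a 1.5-fold change. Cxcl1 and Cxcl2 were called up at all 3 times, from 5.92 and 5.73 to 11.22 and 12.58, Cxcl3 and Cxcl5 at 4 h, and Ppbp went from -1.59 back towards 0.

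Counted together, 3 of the 6 genes were called at 15 min (Cxcl1 and Cxcl2 up, Ppbp down), where 4.18% of all genes tested were called. At 30 min the same 3 genes were called in the same directions, against 4.58% of all genes. At 4 h, 5 of the 6 were called, all up and all but Ppbp, where 32.8% of all genes were called. Cxcl3 and Cxcl5 had to differ there to pass the filter on low counts, so this count is a description and is not set against that share. Between LPS 15 min and 30 min, 2 were called (Cxcl1 by 3.67, SE 0.0424, and Cxcl2 by 4.11, SE 0.0440), against 4.65%. From 30 min to 4 h, 4 were called, where 28.6% of all genes were called. These were Cxcl1 (1.63, SE 0.0388), Cxcl2 (2.74, SE 0.0274), Cxcl5 (6.45, SE 0.415) and Cxcl3, at least 70.4-fold higher. Without LPS 30 min replicate 3, which held 8 of the 14 fragments, the Cxcl5 step was 7.08. Ppbp (0.82, adjusted p 0.0697) and Pf4 (0.70, adjusted p 0.128) missed the threshold there, although their libraries did not overlap, and Pf4 passed it without LPS 4 h replicate 1 (0.77, adjusted p 0.0498). From 15 min to 4 h all 6 were called up, where 36.0% of all genes were called. The steps of Ppbp (1.38) and Pf4 (1.21) in that comparison were 0.70 and 0.53 and not called with library totals alone. Cxcl3 and Cxcl5 passed the filter through their LPS 4 h libraries alone, so the counts of 4 h against earlier LPS groups are not set against those shares either. All these comparisons share libraries and are not independent.

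The Salmon files split each gene by transcript, and 5 of the 6 genes have an annotated transcript that keeps an intron (all but Ppbp). Cxcl1-202 is the one of Cxcl1. It took 39.2%, 39.9% and 40.1% of the fragments of Cxcl1 in the LPS 15 min libraries, 11.5%, 11.7% and 11.6% at 30 min, and 7.57%, 7.66% and 7.49% at 4 h. The 3 times did not overlap. In level, fragments on the intron-retaining transcript went from 35.0 ± 0.874 CPM at 15 min to 130.0 ± 0.794 CPM at 30 min and 263.7 ± 2.67 CPM at 4 h, while those on the spliced transcript went from 53.0 ± 2.04 to 991.5 ± 3.15 and 3218 ± 31.2 CPM (SD, n = 3). Both kinds thus went up at every step, the spliced kind by more.

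Cxcl2 has 2 such transcripts, Cxcl2-203 and Cxcl2-204, which together took 56.0%, 60.5% and 71.2% of its fragments at 15 min. They took 25.9%, 27.4% and 23.2% at 30 min and 10.2%, 9.51% and 9.73% at 4 h, again without overlap between times. PBS shares rest on 23 to 63 fragments for Cxcl1 and 3 to 9 for Cxcl2 per library and are not compared. Over all genes the share on intron-retaining transcripts was 5.17% ± 0.0116 in PBS, 5.99% ± 0.0115 at 15 min, 4.79% ± 0.0248 at 30 min and 4.51% ± 0.0191 at 4 h (SD, n = 3), so it moved the same way after 15 min, by 1.198 and 0.278 percentage points. For Cxcl1 the steps were 28.2 and 4.02 points and for Cxcl2 37.1 and 15.7 points. Each step had an exact permutation p of 0.1 (two-sided), the smallest possible here, or 0.13 adjusted over those 13 tests. Salmon assigns short reads to transcripts by model, and unspliced precursor RNA and a spliced transcript that keeps an intron cannot be told apart in these values. Counted in TPM rather than fragments the shares of Cxcl1 were lower (22.2%, 5.32% and 3.37% at the 3 times) and kept their order. Those of Cxcl2 also kept their order but were higher in TPM than in fragments at 30 min and 4 h. There the short Cxcl2-204 weighs more: in LPS 30 min replicate 1 it had 92.2 TPM from 228 fragments, and Cxcl2-203 31.4 TPM from 1029. At 4 h, Cxcl5-202 took 6.39%, 11.1% and 10.8% of the fragments of Cxcl5, and Cxcl3-202 took 2.58%, 0% and 2.50% of those of Cxcl3, from about 1 fragment.

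**Figure D3:**
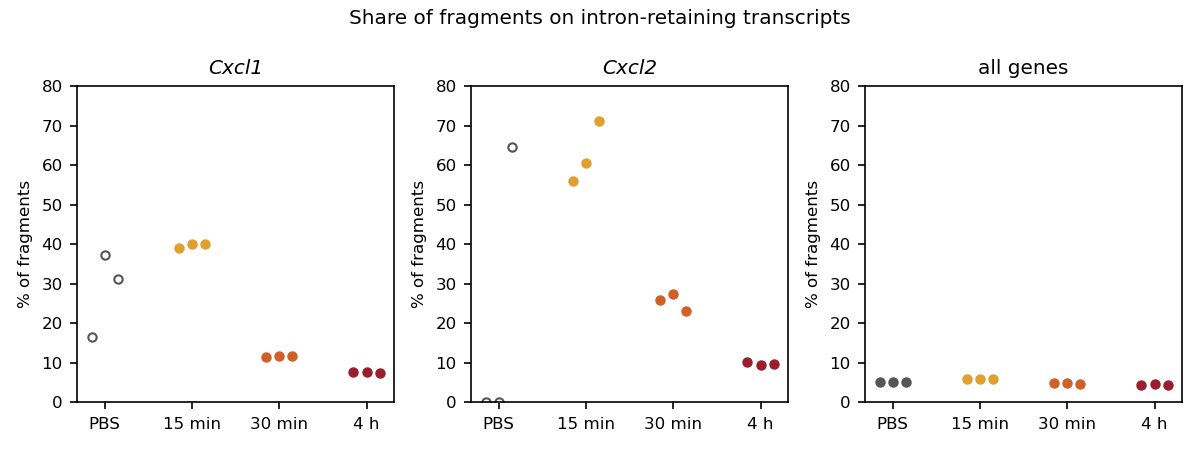
Percent of fragments assigned to intron-retaining transcripts in each library, for Cxcl1, Cxcl2 and all genes; open points are PBS libraries with 63 fragments or fewer. Cxcl1 went from about 39.7% at 15 min to 7.57% at 4 h and Cxcl2 from 62.6% to 9.82%, while all genes stayed between 4.496% and 6.002%.

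The make-up of the chemokine mRNA pool changed with time. Of the summed TPM of the 6 genes, Pf4 and Ppbp made up 95.0% to 96.8% in the PBS libraries and 24.1% to 25.4% at 15 min. They made up 2.90% to 3.16% at 30 min and 1.15% to 1.45% at 4 h. The sum itself went from 71.6 to 86.1 TPM in PBS to 5394 to 5566 TPM at 4 h. Cxcl1 exceeded Cxcl2 in every library on this per-length scale, and the ratio of Cxcl1 to Cxcl2 fell over the LPS groups, from 7.58 ± 1.19 (15 min) through 5.80 ± 0.386 (30 min) to 2.90 ± 0.0205 (4 h; SD, n = 3). The 3 LPS groups did not overlap in this ratio (exact permutation p = 0.1 for each step, two-sided, the smallest possible, or 0.13 adjusted over the same 13 tests). In PBS the ratio was 2.46 to 6.59, with few fragments of Cxcl2, and overlapped with LPS 15 min (exact permutation p = 0.2). The lowest, in PBS replicate 3, rests on 1.94 fragments assigned to the short Cxcl2-204, which gave 0.918 of the 0.957 TPM of Cxcl2 there.

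**Figure D4:**
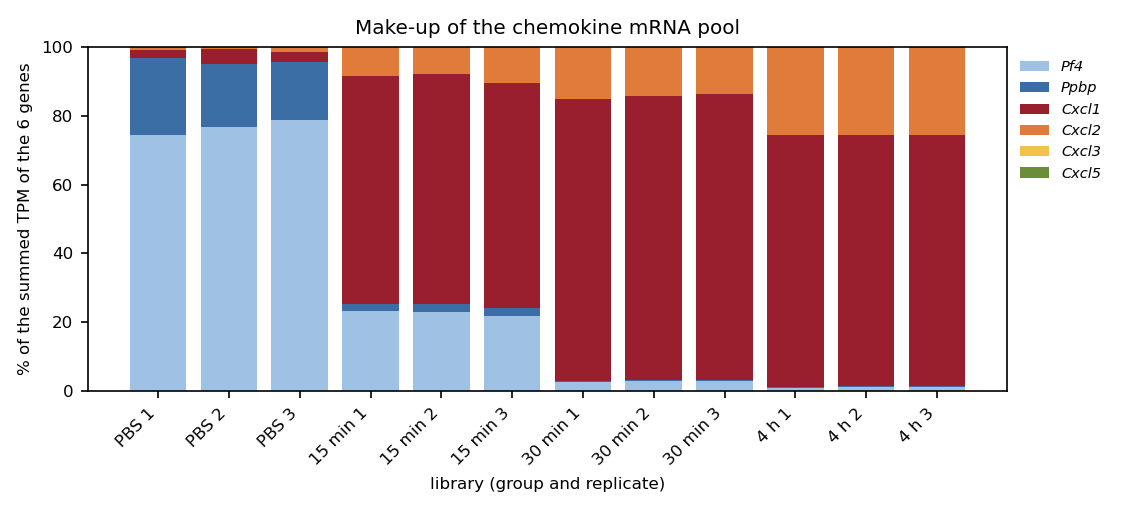
Share of each gene in the summed TPM of the 6 genes, in percent, for each of the 12 libraries, as stacked bars. Pf4 and Ppbp filled at least 95.0% of the bar in PBS and at most 1.45% at 4 h, where Cxcl1 took 73.0% to 73.4% and Cxcl2 25.1% to 25.3%.

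Of the genes for proteins that receive these ligands, Ackr1 rose at every time and Cxcr2 at 4 h. Ackr1, which marks venular endothelium, was at 17.5, 16.5 and 15.9 TPM in PBS and 33.1, 33.2 and 35.5 TPM at 15 min. It was at 214, 208 and 210 TPM at 30 min and 1475, 1421 and 1449 TPM at 4 h, with no overlap between groups. Its log2 fold changes from PBS in CPM were 1.03 (SE 0.0488), 3.95 (SE 0.0431) and 7.34 (SE 0.0422), all called by edgeR. Cxcr2, the signalling receptor of neutrophils, was at 2.14, 2.26 and 2.33 CPM in PBS, and its changes at 15 min (-0.44) and 30 min (-0.23) were not called. At 4 h it was at 9.94, 13.3 and 9.43 CPM, a change of 2.28 (SE 0.187) that was called. Cxcr1 was at or near 0 in all libraries and was not tested.

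The 4 h libraries also held more mRNA of neutrophil genes. Of 14 neutrophil genes listed, 11 were tested. At 4 h, where 32.8% of all genes were called, 10 of these, all but Prtn3, were higher than in PBS. The count was 9 by limma and with library totals alone, where Mmp9, a gelatinase, was lost. The median log2 fold change was 5.60, and -0.01 over all genes. Ngp (mean 0.123 CPM in PBS), Camp (0.0956), Retnlg (0.264), Mmp8 (0.109) and Il1r2 (0.101) passed the filter on low counts through their LPS 4 h libraries alone. The count and the median are therefore descriptions and are not set against all genes. The list summed to 7.68 to 9.75 CPM in PBS, 6.54 to 8.03 at 15 min, 10.2 to 12.05 at 30 min and 260 to 266 at 4 h. S100a8 and S100a9, the calprotectin subunits, rose by 6.11 (SE 0.250) and 6.22 (SE 0.143), and Ngp, a granule protein, by 7.39 (SE 0.609). Ly6g, Mpo and Elane, listed but not tested, were at 0 in all PBS libraries and at means of 0.297, 0.0964 and 0.0514 CPM at 4 h. At 15 and 30 min, when Cxcl1 and Cxcl2 had already risen, edgeR called 0 of the 11 higher (0 at 15 min and 1 at 30 min at an unadjusted p below 0.05; 0 by DESeq2 and by limma), and S100a9 was lower at 15 min (-1.89, SE 0.285), a call lost by limma with 10 added. The part of neutrophil RNA in the chemokine levels at 4 h was not tested.

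**Figure D5:**
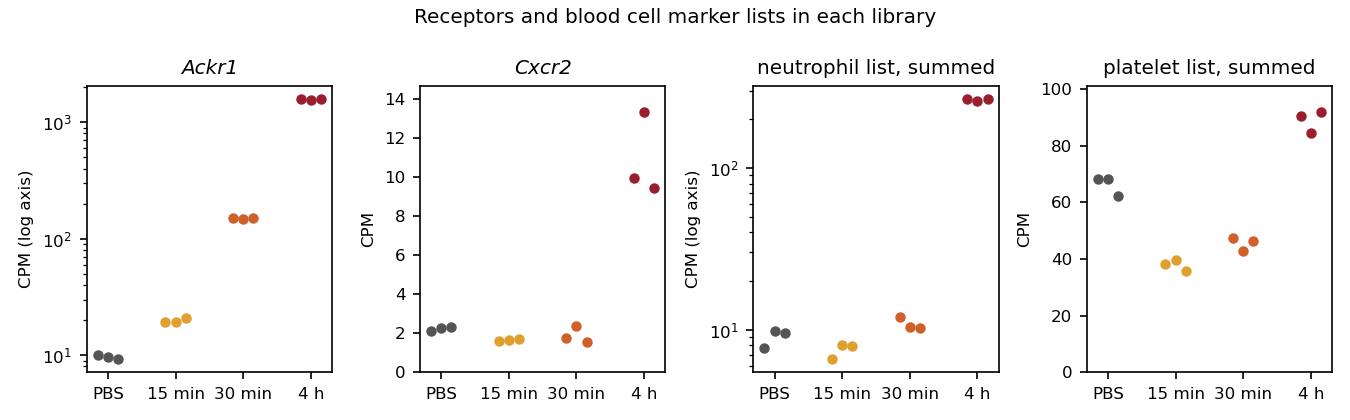
CPM of Ackr1 and Cxcr2 and the summed CPM of the neutrophil and platelet gene lists in each library, by group; the axes of Ackr1 and of the neutrophil list are logarithmic. Ackr1 rose at every time, to over 1546 CPM at 4 h, Cxcr2 and the neutrophil list stood above PBS at 4 h, and the platelet list was lower than PBS at 15 and 30 min.

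Platelet and megakaryocyte genes other than Ppbp and Pf4 were compared beside them. Of 14 tested, edgeR called 3 lower at 15 min (8 at an unadjusted p below 0.05) and 0 higher (0 unadjusted, and 0 by DESeq2 and by limma). These were Itgb3, an integrin subunit (-1.09, SE 0.124), Alox12, a lipoxygenase (-0.91, SE 0.0898), and Mmrn1, a granule protein (-2.59, SE 0.562). DESeq2 also called 3 lower, but limma called 1 with 1 added to the authors' values (Mmrn1) and 0 with 10 added, and 4.18% of all genes were called at that time. The median of the list was -1.06 against -0.002 over all genes, and that of Ppbp was -1.59 and of Pf4 -0.28. At 30 min, where 4.58% of all genes were called, 2 were lower (Alox12, -1.19, and Tubb1, the platelet tubulin, -1.58), and the median was -0.54. The call of Tubb1 was lost by DESeq2 and limma. At 4 h, where 32.8% of all genes were called, 2 were higher and 1 lower. The counts were 1 and 1 by DESeq2 and limma, where Gp1bb, a subunit of the von Willebrand factor receptor, was lost. They were 1 and 5 with library totals alone. The summed list was at 62.4 to 68.3 CPM in PBS, 35.7 to 39.6 at 15 min, 42.8 to 47.3 at 30 min and 84.6 to 91.8 at 4 h. The 4 h sum lay above PBS in CPM but below it in TPM, at 29.9 to 37.7 against 49.8 to 57.1, so its direction depended on the scale. Itgb3, also made by endothelium and other cells, held 44.2 of these CPM at 4 h against 12.8 in PBS. The part of platelet number in the fall of Ppbp was not tested.

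Of 9 other CXC ligand genes listed, 7 were tested. Cxcl10, an attractant of T cells through CXCR3, was called at all 3 times (1.19, SE 0.102, then 4.20, SE 0.0887, and 12.18, SE 0.0863), the first of these not by limma with 10 added (0.947), and at 4 h its mean of 9070 CPM was above that of Cxcl1. Cxcl9 (10.59, SE 0.421), Cxcl11 (8.40, SE 0.192) and Cxcl16 (4.92, SE 0.100) were called up at 4 h only among the 3 comparisons with PBS. Cxcl9, at group means of at most 0.466 CPM before 4 h, passed the filter on low counts only with its LPS 4 h libraries. The call of Cxcl9 is therefore a description. Cxcl12, made by endothelium and mural cells at rest, fell to 73.3 ± 0.779 CPM at 4 h from 663 ± 2.32 (SD, n = 3), a change of -3.18. Cxcl14 was not called at any time. Cxcl17 was called at 15 min (3.81, SE 1.01) but from a mean of 0.0352 CPM in PBS, and not by DESeq2 or by limma with 10 added. It passed the filter on low counts through its LPS 15 min libraries alone, so that call is of a gene kept for being high there. Cxcl15, which lies between Cxcl3 and Cxcl1, had means of 0 to 0.0144 CPM.

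The genes for other CXC receptors moved less evenly. Of 5 listed, 4 were tested. At 4 h Ackr3, a scavenger of CXCL12, was higher (1.19, SE 0.0337, but 0.483 and not called with library totals alone), Cxcr4 was lower (-1.22, SE 0.186), and Cxcr3 had no fragment against 0.748 ± 0.162 CPM in PBS and was called lower. Cxcr3 passed the filter on low counts only with its PBS libraries, so its call is a description. At 15 min Cxcr5, a receptor of B cells, was called lower by edgeR at 0.0729 CPM against 0.576 CPM in PBS, but not by DESeq2 or limma. Of 13 genes for heparan sulfate synthesis and its core proteins, 5 were higher and 1 lower at 4 h, where 32.8% of all genes were called, and with library totals alone 3 were higher and 6 lower. Sdc4, a syndecan, rose at 30 min (0.81, SE 0.0303, not called with library totals alone) and 4 h (3.74, SE 0.0284). Ext1 (1.95), Ndst1 (1.59) and Hs6st1 (1.13), enzymes of chain making, and Sdc3 (0.72) were higher at 4 h, and Ext2, the partner of Ext1, was lower (-1.08). With library totals alone Hs6st1 (0.424) and Sdc3 (0.018) were not called, so these rises are relative to the median gene. At 15 min Sdc1 was the 1 gene of this list that was called (-0.82, SE 0.0667), by DESeq2 too but not by limma.

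The marker lists of other cells are given beside these genes. At 15 min 4.18% of all genes were called. At that time endothelial genes had a list median of -0.08 with 1 higher and 2 lower of 10, and mural genes -0.14 with 2 lower of 8. Perivascular macrophage and microglial genes had medians of -0.16 each, with 0 of 9 and 0 of 11 called by edgeR, and 0 also at an unadjusted p below 0.05, by DESeq2 and by limma. Perivascular fibroblast genes had 2 of 6 lower and a median of -0.46, and Gfap, an astrocyte filament gene, was at 77.9 CPM against 179 in PBS (-1.20, SE 0.0403). Neuronal genes summed to 507 to 520 CPM at 15 min, above their PBS range, with 2 of 6 higher: Slc17a7, a glutamate transporter gene (1.24, SE 0.0408), and Syt1 (0.70), which DESeq2 and limma did not call. Of 5 erythroid genes 2 were higher (Hbb-bs and Hbb-bt), and 0 by DESeq2 and limma. At 4 h, 7 of 10 endothelial genes were lower and 1 higher (median -1.22), 6 of 11 microglial genes were lower (median -1.36) and the perivascular macrophage list had 2 higher and 2 lower of 9 (0 and 3 with library totals alone). Perivascular fibroblast genes had 3 of 6 lower at 4 h, and astrocyte genes 3 of 6 higher, but 1 by DESeq2 and limma, where 32.8% of all genes were called. With library totals alone, 11 of 11 microglial, 8 of 8 mural and 6 of 6 neuronal genes were lower at 4 h, in place of 6, 1 and 1. Perivascular fibroblast genes then had 5 lower, and astrocyte genes 2 higher and 1 lower. Erythroid genes summed to 2317 to 2492 CPM in PBS and 6941 to 7306 at 4 h, with 5 of 5 higher. The part of each cell type in the chemokine levels was not tested.

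Genes around the cluster were looked at next. Of 10 other protein-coding genes within 300 kb of it, 3 passed the filter on low counts. Mthfd2l, just beyond Cxcl2, was at 14.04 CPM in PBS and had changes of -0.05, -0.05 and -0.44 at the 3 times, none called, but -1.14 at 4 h with library totals alone, which was called (adjusted p 4.84e-05). Rassf6 was not called on either scale (0.33, 0.38 and 0.50, and -0.20 at 4 h with library totals alone). Areg, a growth factor gene, was called at 30 min (4.01, SE 1.16, edgeR adjusted p 0.00860, not by limma), but at 0.673 CPM against 0.0379 in PBS. It passed the filter on low counts only with its LPS 30 min libraries, so that p-value is of a gene kept for being high there. The remaining 7, Alb, Afp, Afm, 5830473C10Rik, Cxcl15, Epgn and Ereg, had group means of at most 0.276 CPM.

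By Pearson's r of log2(CPM + 1) over the 12 libraries, the genes most like each member were as follows, as a description over libraries that fall into 4 groups. For Cxcl1 they were Adamts1 (0.999), Rhob (0.997) and Ptges3 (0.995). Adamts1 had means of 105, 383, 962 and 1572 CPM from PBS to 4 h. For Cxcl2 they were Nfkbia (1.000), Lrrc8a (0.999) and Mcl1 (0.999), and Nfkbia had means of 209, 491, 1282 and 2546 CPM. For Cxcl3 they were Ubd, Daxx and Cmpk2 (each 1.000) and for Cxcl5 Gm42519, Prnp and Ubd (0.999, 0.999 and 0.998), all of which stood near their PBS level until 30 min. Such late profiles were common, with 690 genes at r over 0.99 with Cxcl3 and 653 with Cxcl5, against 16 with Cxcl1 and 25 with Cxcl2. For Ppbp (Ptprj, Gm42418 and Slc20a2, 0.963 to 0.965) and Pf4 (Tmed7, Cfap53 and Dstn, 0.978 to 0.982) no gene passed 0.99. Among the members, r was 0.982 for Cxcl1 with Cxcl2, 0.998 for Cxcl3 with Cxcl5 and 0.509 for Ppbp with Pf4.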

How the data were processed

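RNA-seq libraries of mouse cerebral vessels were made with SMART-Seq v4 and Nextera XT, which keep no strand, and sequenced as paired reads. The authors quantified transcripts with Salmon 1.2.1 and, per the study's methods, summed them with tximport against GRCm38.p6. The deposited transcript files hold estimated counts and TPM, which the authors' tool scales by length and to a fixed sum per library. The values of the deposited gene table are a signal, that is, gene counts scaled by the authors with DESeq2 size factors. Here the estimated counts were joined to GENCODE M21 by transcript identifier, summed to genes and rounded; 0.48% to 0.85% of fragments per library could not be joined. The columns of the gene table carry numbers, which were matched to the numbers of the submitters' files. The table was used in limma alternatives alone.

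Genes were kept by edgeR's filterByExpr (minimum count 10, minimum total count 15), scaled by TMM and fitted over all 12 libraries with 1 mean per group (edgeR 4.0.16, R 4.3.3). glmTreat tested each contrast against a change of at most 1.5-fold, with Benjamini-Hochberg adjustment over all 19150 genes, called below 0.05. SE came from the fitted information and the posterior quasi-dispersion. The common biological coefficient of variation was 0.0524. The test was checked on simulated counts. Depth was 18309177 to 25882028 fragments per library, and intervals cover counting and fitted error only.

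Genes were named by membership, by fixed lists of related ligands, receptors and cell markers, by distance (300 kb) and by the 3 highest correlations. The members and lists were chosen with earlier results of these data known. Alternatives were DESeq2 1.42.0, limma 3.58.1 on the authors' table with 1 or 10 added, other scalings and filters, no fold limit, a length offset, the compared groups alone, a replicate block and leaving out each library. After seeing the data, intron-retaining shares were also taken in TPM, and the lists and neighbouring genes were also tested with DESeq2, limma and library totals alone.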

Additional observations from a re-analysis of the deposited data

Results flagged for a closer look

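The results below stood out because the effect of LPS differed between time points, tested as the difference between those groups in the same edgeR fit (adjusted p below 0.05). Log2 differences are in CPM and all were higher at the later time. Between 15 and 30 min, Cxcl1 differed by 3.67 and Cxcl2 by 4.11. Between 30 min and 4 h, Cxcl1 differed by 1.63, Cxcl2 by 2.74 and Cxcl5 by 6.45, and Cxcl3 was at least 70.4-fold higher, set against a floor of 3 fragments over the group. Between 15 min and 4 h, Cxcl1 differed by 5.31, Cxcl2 by 6.85, Cxcl5 by 7.62, Ppbp by 1.38 and Pf4 by 1.21; those of Ppbp and Pf4 were 0.70 and 0.53 and not called with library totals alone. Cxcl3, with 1 fragment in the LPS 15 min group, had a ratio of 244 between those times (95% counting interval 43.1 to 9725). Cxcl3 and Cxcl5 passed the filter on low counts through their LPS 4 h libraries alone, so their differences with 4 h are descriptions. All groups had 3 libraries, too few to look for a library far from the others.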

How the results depend on the processing

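Over 22 alternatives per comparison, the number of the 6 genes called was 3 to 4 at 15 min, 2 to 3 at 30 min and 5 at 4 h against PBS. Between LPS groups it was 2 to 4 (30 min against 15 min), 4 to 6 (4 h against 30 min) and 4 to 6 (4 h against 15 min). The 1 count that moved by over 1.5 times was that of 30 min against 15 min, 4 in place of 2 without the fold limit, where Ppbp and Pf4 were added; that test has a weaker null by construction. No called value changed sign under these alternatives. Leaving out single libraries gave 5.66 to 6.34 for Cxcl1 and 5.45 to 6.08 for Cxcl2 at 15 min, and 6.87 to 7.89 for Cxcl5 at 4 h, all as log2 fold changes from PBS. Same-numbered libraries did not deviate together (r -0.067 to 0.052 over 18 comparisons). These deviations hold the counting noise of all genes, so the check could have missed a pairing by number. With the replicate number as a block the counts of the 6 genes were 3, 3, 5, 2, 4 and 6, as without it, and the block left the count of all genes called at 15 min at 776 against 800.

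Over all genes, in the order 15 min, 30 min and 4 h against PBS, 30 min against 15 min, 4 h against 30 min and 4 h against 15 min, 800, 877, 6273, 891, 5484 and 6894 were called. Without the fold limit these were 7393, 7066, 13124, 7153, 12498 and 13534. limma on the authors' table with 1 added called 406, 531 and 443 at 15 min and 30 min against PBS and at 30 min against 15 min, and 385, 497 and 413 with 10 added. Library totals alone gave 10462, 8848 and 10761 in the 3 comparisons with 4 h. The share of calls that were higher was then 61.4% in place of 82.6% (30 min against PBS), 18.2% in place of 58.0% (4 h against PBS), 37.2% in place of 57.9%, 21.7% in place of 58.9% and 18.4% in place of 54.0%, in the order above; the cause was not tested. Depth limits Cxcl3 and Cxcl5 before 4 h and all PBS values of Cxcl2.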
